A study of Sus scrofa with 10 samples.

Results

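Blood of pigs aged 180 days (D180, sexual maturity in the labels) was compared with blood of adult pigs aged 2 years (Y2), transcript by transcript, in 4 of the 10 libraries of a series that follows pig blood from birth. The libraries are those that the labels place at these ages, 2 per age. All pigs were healthy female Qingyu pigs, a domestic breed, with no treatment given in the labels. Each library came from a different animal, so age and the particular pigs sampled cannot be told apart, and the p-values below measure the spread between pigs of one age. The remaining 6 libraries came from suckling pigs, 2 each at birth (D0), at 7 days (D7) and at 28 days (D28), and give the earlier course of each transcript. RNA was taken from unsorted whole blood, depleted of ribosomal RNA and sequenced with strand-specific libraries.

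In whole blood, RNA of white cells and platelets is mixed with RNA of reticulocytes, the youngest red cells, which have lost their nucleus but still carry mRNAs for globin and for heme synthesis. Interferon-stimulated genes are antiviral genes that most blood cells switch on together when interferons reach them, and eosinophils, platelets and T cells each carry transcripts that few other blood cells make. Long noncoding RNAs (lncRNAs) are transcripts without an evident protein-coding frame, usually scarcer and more restricted to single cell types than mRNAs. In bulk blood, fewer cells of a type and less RNA per cell cannot be told apart.

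Expression was given in FPKM, a level per unit of transcript length and of library size, for 12354 mRNAs, of which 9735 (78.8%) could be given a gene symbol, and for 5946 lncRNAs. Nearly the whole transcriptome lay lower at Y2 in this unit. The median mRNA had 5.39 and 5.64 FPKM in the D180 pigs and 3.03 and 2.99 FPKM in the Y2 pigs, and 89.0% of mRNAs were lower in both Y2 pigs than in both D180 pigs. At the same time, the 10 most abundant mRNAs, those with the highest mean over all 10 libraries, held 68.2% and 68.1% of the summed mRNA FPKM at D180. They held 84.2% and 83.2% at Y2, against 86.9% to 90.7% in the suckling pigs. The same 10 were used for every library, so they need not be the 10 highest of each. FPKM within a library depend on each other, since a larger share of a few abundant mRNAs leaves a smaller share to all others. Each column was also divided by its median-of-ratios factor, the median over 11527 mRNAs of the ratio to their geometric mean across libraries. The factors were 2.87 and 3.03 at D180, 1.60 and 1.59 at Y2 and 0.437 to 1.00 in the suckling pigs, so the general fall from D180 to Y2 was to 0.540 of the D180 level (-0.89 on the log2 scale). Values divided by these factors are called scaled below, and all others are as deposited. After scaling, 27.3% of mRNAs were lower and 33.1% higher in both Y2 pigs than in both D180 pigs. As deposited, 3.47% were higher in both. The files hold no counts, so the number of reads behind a single value cannot be read from them.

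Defining blood markers were present in all 4 libraries. The T cell receptor subunit CD3E had 64.4 and 65.2 FPKM at D180 and 35.9 and 35.5 FPKM at Y2, the B cell antigen MS4A1 (CD20) 79.7 and 84.4 FPKM at D180 and 51.6 and 51.5 FPKM at Y2, the neutrophil growth factor receptor CSF3R 103 and 101 FPKM at D180 and 54.1 and 52.9 FPKM at Y2 and the platelet chemokine PPBP 179.9 and 169 FPKM at D180 and 51.3 and 54.9 FPKM at Y2. All 4 markers were well above 0 in every library as deposited. Of 75 genes of muscle sarcomeres, 13 were listed at all, and their summed scaled level was 15.2 and 16.6 FPKM at D180 and 13.5 and 13.6 FPKM at Y2.

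Differences were fitted with limma on log2(FPKM + 1), and a transcript was called when its Benjamini-Hochberg adjusted p was at most 0.05 and its log2 difference, Y2 minus D180, was at least 1.5 in either direction, a 2.83-fold change. As deposited, 154 mRNAs (1.25% of the 12354 tested) were called lower at Y2 and 13 (0.105%) higher, and the median difference over all mRNAs was -0.65. By adjusted p alone, 10447 mRNAs (84.6%) were lower and 308 (2.49%) higher. After scaling the order was turned around: 55 mRNAs (0.445%) were called higher and 10 (0.0809%) lower, with 923 (7.47%) and 488 (3.95%) by adjusted p alone and a median of 0.01. All 10 mRNAs called lower after scaling were among the 154 called as deposited, and 12 of the 13 called higher as deposited were called again. Of the 154, 131 were still lower by adjusted p after scaling, with a median scaled difference of -0.84 over the 154. When instead the 10 most abundant mRNAs were taken out and each library was brought to the same sum over the remainder, the fall came to -0.68 (log2). In this setting 47 mRNAs were called higher and 25 lower. By adjusted p alone, 766 of 12344 mRNAs rose and 2091 fell, with a median of -0.13. The split of calls into higher and lower thus depended on the scaling (92.2% lower of 167 as deposited, 15.4% of 65 scaled, 34.7% of 72 with the 10 removed), and the changes below are given relative to the general fall. An exact permutation test over 2 pigs against 2 cannot give a p below 0.333, so no single-gene permutation p is given.

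**Figure D1:**
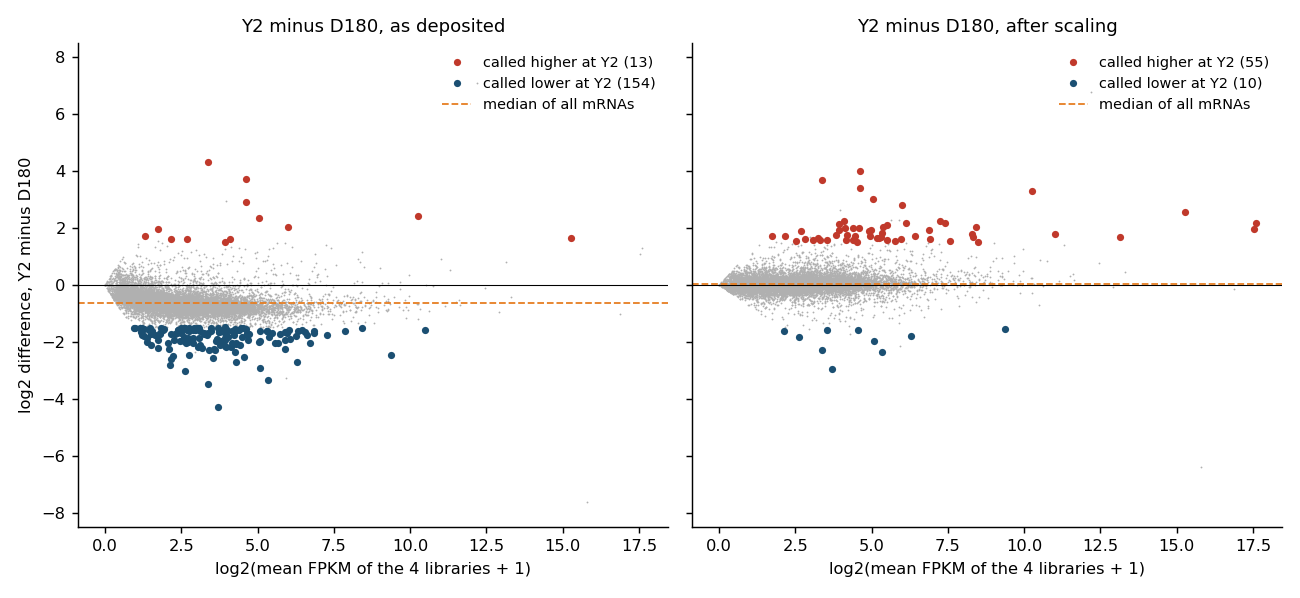
Difference Y2 minus D180 in log2(FPKM + 1) of every mRNA (vertical axis) against the log2 mean FPKM of the 4 libraries (horizontal axis), as deposited on the left and scaled on the right, with called mRNAs coloured and the median as a dashed line. As deposited the cloud lies below 0 with a median of -0.65, and after scaling it is centred at 0.01 with 55 mRNAs called higher and 10 lower.

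Genes of the interferon response were lower at Y2. Of 50 listed genes 41 were measured, and after scaling all 41 had a difference below 0, 27 passed the adjusted p and none rose, beside 3.95% of all mRNAs that fell by adjusted p. Their median scaled difference was -0.49 (all mRNAs 0.01). When the 10 most abundant mRNAs were removed it was -0.71 (all mRNAs -0.13), with 34 falling (2091 of all 12344 mRNAs). After scaling 4 were called lower (all mRNAs 0.0809%). As deposited all 41 fell by adjusted p (all mRNAs 84.6%), 15 of them called (all mRNAs 1.25%), with a median of -1.36 (all mRNAs -0.65).

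The steepest of them was IFI6 (chr6:84852782-84858072), a small interferon-induced membrane protein, with 76.0 and 70.4 FPKM at D180 and 6.26 and 6.40 FPKM at Y2. Both Y2 pigs lay far below both D180 pigs, and the scaled log2 difference was -2.38 ± 0.0912 (SE, limma, adjusted p = 6.30e-06). RSAD2 (chr3:128880853-128897809), which encodes the antiviral enzyme viperin, had 56.2 and 61.7 FPKM at D180 and 6.72 and 7.00 FPKM at Y2, a scaled difference of -1.98 ± 0.0670 (limma, adjusted p = 5.88e-06). The dynamin-like antiviral GTPase genes MX1 (chr13:204843049-204868927) and MX2 (chr13:204798633-204821612) are neighbours, and MX1 had 137 and 134 FPKM at D180 and 20.7 and 18.8 FPKM at Y2. MX2 had 38.3 and 40.0 FPKM at D180 and 5.65 and 6.27 FPKM at Y2, and the scaled differences were -1.81 and -1.59. In all 4 genes the pigs of one age lay close together and the ages did not overlap. Of all mRNAs, 89.0% as deposited and 27.3% after scaling were lower in both Y2 pigs than in both D180 pigs. MX1 and MX2 are related in sequence, and how reads were shared between them is uncertain.

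Another 11 interferon genes were called only as deposited, falling less steeply once the general fall was taken out. ISG20, a nuclease that degrades viral RNA, had 18.9 and 19.2 FPKM at D180 and 4.03 and 2.31 FPKM at Y2 (scaled difference -1.34), and the nucleic acid sensor ZBP1 had 24.7 and 23.4 FPKM at D180 and 4.81 and 4.59 FPKM at Y2 (-1.21 scaled). The scaled difference was -1.18 for the mitochondrial kinase CMPK2, -1.14 for IFI44, -1.12 for IFI44L and -1.16 for EPSTI1. It was -0.94 for OAS2, which makes the activator of RNase L, -0.79 for the chemokine CXCL10, -0.78 for the ubiquitin-like ISG15, -0.73 for the transcription factor IRF7 and -0.95 for the secreted glycoprotein LGALS3BP. The list did not move as one block. IFIT1, which binds viral RNA, was the most abundant of those not called, with 389 and 404 FPKM at D180 and 200.3 and 202 FPKM at Y2, and its scaled difference was -0.09 (limma, adjusted p = 0.704).

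The earlier course of these genes differed. On scaled age means, 19 of the 41 were highest at D7, 11 at D180, 7 at D28 and 4 at D0 (1958, 2095, 2663 and 3510 of all 12354 mRNAs). The Y2 mean was below all suckling means in 15, within their range in 25 and above it in 1 (all mRNAs 25.6%, 48.9% and 25.5%). IFI6 had 40.1, 31.7 and 17.7 scaled FPKM at D0, D7 and D28, 24.9 at D180 and 3.97 at Y2, so its Y2 mean was the lowest of the 5 ages. RSAD2 had 5.51, 13.8 and 8.80 before 20.0 at D180 and 4.30 at Y2, with its highest mean at D180. MX1 was highest at D7 with 53.8 scaled FPKM, and stood at 46.1 at D180 and 12.4 at Y2, close to its D0 mean of 9.66.

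The mRNA with the largest fall among those with a symbol was TAGLN (chr9:44561756-44567385), transgelin, an actin-binding protein best known from smooth muscle. It had 26.7 and 20.9 FPKM at D180 and 0.268 and 0.234 FPKM at Y2, a D180 mean 95.0 times the Y2 mean as deposited, and its scaled log2 difference was -2.96 ± 0.118 (limma, adjusted p = 6.30e-06). Both D180 pigs were above 20 FPKM and both Y2 pigs under 0.5 FPKM. As deposited its means were 0.493 FPKM at D0, 0.236 at D7 and 17.3 at D28, so the high level was shared by D28 and D180 only. The factors were 1.00 and 0.971 at D28 against 2.87 and 3.03 at D180, so the scaled mean was already lower at D180 than at D28. Of other genes of smooth muscle or the cytoskeleton, looked up after the values were seen, CALD1 (caldesmon) had 35.8 and 41.1 FPKM at D180 and 13.7 and 13.2 FPKM at Y2, a scaled difference of -0.57 that did not pass (limma, adjusted p = 0.197), and smooth muscle actin ACTA2 stayed under 0.5 FPKM in all 4 pigs (0.445 and 0.456 against 0.111 and 0.152 FPKM).

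LIX1 (chr2:103741379-103801879), a gene known from limb and nervous system development, had 19.2 and 18.4 FPKM at D180 and 2.24 and 2.37 FPKM at Y2 and a scaled difference of -1.59 ± 0.0938. Both Y2 pigs were below both D180 pigs, as in 89.0% of all mRNAs as deposited. The scaled means of 1.62, 4.35 and 2.13 in the suckling ages lay between the 1.44 of Y2 and the 6.37 of D180. The cell cycle cyclin CCND2 had 34.1 and 32.5 FPKM at D180 and 4.36 and 4.13 FPKM at Y2 and was called as deposited (-2.71, limma, adjusted p = 4.85e-04) but not after scaling (-1.75 ± 0.480, adjusted p = 0.0548). Among mRNAs without a symbol, ENSSSCG00000040640 had 19.5 and 16.8 FPKM at D180 and 0.962 and 0.495 FPKM at Y2 (scaled difference -2.30) and ENSSSCG00000031632 8.49 and 11.4 FPKM at D180 and 0.301 and 0.353 FPKM at Y2 (-1.85).

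A group of scarce mRNAs was nearly gone at Y2. These were picked after their values were seen. The actin-binding gene NEBL had 4.09 and 4.77 FPKM at D180 and 0.172 and 0.135 FPKM at Y2, DDC, the decarboxylase that makes dopamine and serotonin, had 3.06 and 3.19 FPKM at D180 and 0.0411 and 0.0202 FPKM at Y2, and MALRD1 had 3.65 and 3.58 FPKM at D180 and 0.0694 and 0.0722 FPKM at Y2. The endothelial adaptor NOSTRIN had 1.73 and 2.18 FPKM at D180 and 0 and 0.0417 FPKM at Y2 and the receptor tyrosine kinase AXL 2.31 and 2.62 FPKM at D180 and 0.203 and 0.190 FPKM at Y2. In each of the 5, every Y2 pig was below every D180 pig, as in 89.0% of all mRNAs as deposited. On log2(FPKM + 1) such low genes cannot show large differences (-1.19 for NEBL after scaling). At higher levels, also picked after the values were seen, the extracellular glutathione peroxidase GPX3 had 35.7 and 32.2 FPKM at D180 and 6.53 and 7.63 FPKM at Y2 (-1.20 scaled) after deposited means of 105 FPKM at D0 and 51.6 at D28, the quinone reductase NQO1 had a scaled difference of -1.25, and the platelet receptor MPIG6B had 18.2 and 14.98 FPKM at D180 and 2.59 and 2.58 FPKM at Y2 (-1.33).

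Red cell genes moved the other way. Of 60 listed genes of globin, heme synthesis and the red cell membrane 45 were measured. After scaling 35 rose by adjusted p and none fell (all mRNAs 7.47% and 3.95%), and 11 were called higher (all mRNAs 0.445%). Their median scaled difference was 0.87 (all mRNAs 0.01). When the 10 most abundant mRNAs were removed it was 0.75 (all mRNAs -0.13). Then 35 rose and 1 fell (766 and 2091 of all 12344 mRNAs). As deposited 23 rose and 7 fell (all mRNAs 2.49% and 84.6%), with 2 called higher (all mRNAs 0.105%) and a median of 0.25 (all mRNAs -0.65). The direction of part of the list thus turned with the scaling.

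Zeta globin HBZ (chr3:41490758-41492883), the embryonic alpha-type chain, had 7.91 and 7.15 FPKM at D180 and 26.9 and 23.0 FPKM at Y2, a difference of 1.60 as deposited and 2.22 ± 0.0905 scaled (limma, adjusted p = 6.30e-06). AHSP (chr3:17059340-17060343), the chaperone of free alpha globin, had 106 and 90.5 FPKM at D180 and 248 and 233 FPKM at Y2 and a scaled difference of 2.15 ± 0.135 (limma, adjusted p = 3.96e-05). Beta globin HBB (chr9:4800683-4801941) had 133644 and 111246 FPKM at D180 and 233169 and 279220.0 FPKM at Y2, with a scaled difference of 1.95 ± 0.464 (limma, adjusted p = 0.0309). All Y2 pigs were above all D180 pigs for these 3 genes (3.47% of all mRNAs as deposited). HBB varied more between pigs, and its call was kept in 2 of the 4 fits that each left out 1 library. Globin genes are near-identical copies in part, so how reads were split between them is uncertain.

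Heme synthesis genes rose along with them. ALAS2 (chrX:47871519-47896041), the erythroid enzyme of the first step, had 1525 and 1369 FPKM at D180 and 2812 and 2581 FPKM at Y2 (1.79 scaled). FECH (chr1:106861628-106898407), which inserts the iron in the last step, had 27.0 and 24.1 FPKM at D180 and 44.7 and 60.6 FPKM at Y2 (1.80 scaled), and UROS, an enzyme in between, 22.8 and 17.9 FPKM at D180 and 42.4 and 37.3 FPKM at Y2 (1.72 scaled). In all 3 both Y2 pigs were above both D180 pigs as deposited too (3.47% of all mRNAs). The carbonic anhydrase CA1 had 2.15 and 2.17 FPKM at D180 and 8.41 and 9.02 FPKM at Y2 and was called in both scalings (1.62 and 1.90). The membrane and cytoskeleton genes RHAG, DMTN and EPB41 were called after scaling at 1.63, 1.55 and 1.52, as was the pseudokinase STRADB at 1.69.

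Other red cell genes show how much the scaling matters. BNIP3L, which clears mitochondria from maturing red cells, had 185 and 181 FPKM at D180 and 172 and 173 FPKM at Y2, a difference of -0.09 as deposited, 0.79 scaled and 0.59 with the 10 most abundant mRNAs removed. The peroxiredoxin PRDX2 had 64.0 and 60.5 FPKM at D180 and 50.5 and 53.8 FPKM at Y2, -0.25 as deposited, 0.61 scaled and 0.42 with the 10 removed. The globin-like chain HBM had 903 and 865 FPKM at D180 and 1121 and 1137 FPKM at Y2 (1.24 scaled, below the fold limit).

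Against the suckling pigs these levels were low at both ages. The median member had 70.7, 46.8, 30.2 scaled FPKM at D0, D7 and D28, 2.63 at D180 and 6.41 at Y2. On scaled means 44 of 45 members were below every suckling mean at D180 and 44 at Y2 (all mRNAs 25.8% and 25.6%). HBZ went from 821 scaled FPKM at D0 to 2.56 at D180 and had 15.6 at Y2, and AHSP had 2386, 33.3 and 151 at the same ages. The summed scaled level of the 45 genes was 47828 and 37812 FPKM in the D180 pigs and 149347 and 179132 in the Y2 pigs. HBB alone made up 97.04% to 98.10% of it in each library, and the other 44 genes summed to 1274.5 and 1119.8 scaled FPKM at D180 and 3533 and 3409 at Y2, sums without HBB that were added after the data were seen. HBB is itself among the 10 most abundant mRNAs, so the full sum and their share given above are not independent. Of these 10, 8 have no symbol and 5 rose after scaling by adjusted p. The part of their share in the other differences was not tested.

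**Figure D2:**
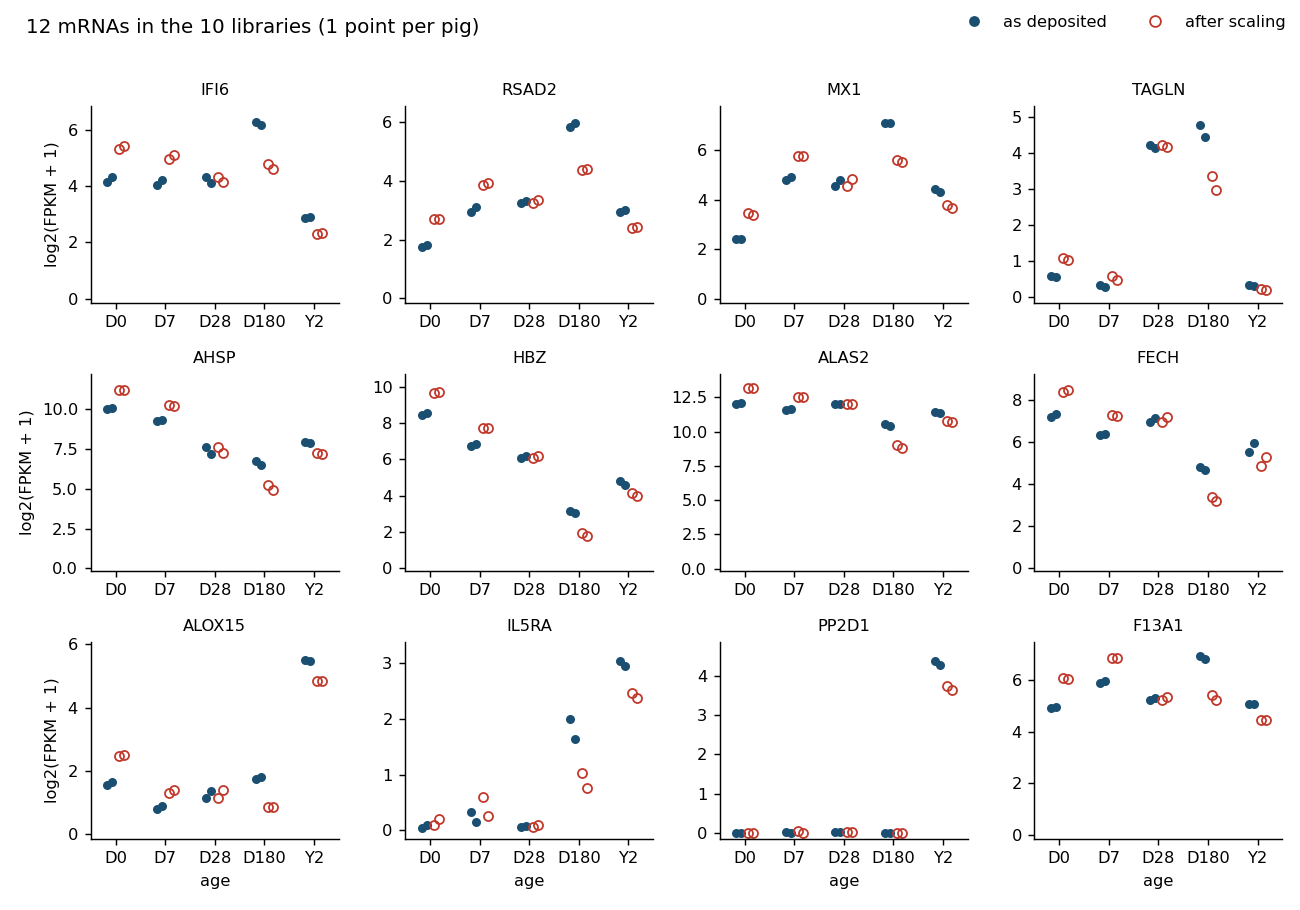
Level of 12 mRNAs in log2(FPKM + 1) (vertical axes) in each of the 10 pigs by age (horizontal axes), with filled points as deposited and open points scaled. IFI6, RSAD2, MX1 and TAGLN drop from D180 to Y2, the red cell genes AHSP, HBZ, ALAS2 and FECH lie lowest at D180, and ALOX15 and PP2D1 are highest at Y2.

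The largest scaled rise among mRNAs with a symbol was that of ALOX15 (chr12:52287174-52295873), a 15-lipoxygenase that in blood is known from eosinophils and maturing red cells. It had 2.36 and 2.497 FPKM at D180 and 44.4 and 43.9 FPKM at Y2, 18.2 times as much as deposited and 33.7 times as much after scaling, a scaled log2 difference of 3.98 ± 0.0897 (limma, adjusted p = 3.33e-07). The pigs of each age lay close together and the ages were far apart. Its scaled means over the suckling ages were 4.56, 1.52 and 1.39 FPKM, against 0.822 in D180 and 27.7 in Y2 pigs, so Y2 was above every earlier age.

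Of 27 genes of eosinophils, basophils and mast cells 11 were measured. After scaling 6 rose by adjusted p and none fell (all mRNAs 7.47% and 3.95%), ALOX15 and IL5RA were called and the median difference was 0.57 (0.42 with the 10 most abundant mRNAs removed). Of the 11, 9 had their highest scaled mean at Y2 (2128 of all 12354 mRNAs). As deposited 5 rose, 3 fell (all mRNAs 2.49% and 84.6%) and the median was 0.00 (all mRNAs -0.65). IL5RA (chr13:59651184-59692211), the receptor for the eosinophil growth factor interleukin 5, had 2.96 and 2.10 FPKM at D180 and 7.20 and 6.65 FPKM at Y2, a scaled difference of 1.53 ± 0.125 (limma, adjusted p = 1.49e-04), called in 2 of 4 fits without 1 library. It was scarce in suckling pigs, with scaled means of 0.110, 0.357 and 0.0541 FPKM.

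GATA2 and EPX are named after their values were seen. The granulocyte transcription factor CEBPE had 3.30 and 2.996 FPKM at D180 and 7.18 and 6.70 FPKM at Y2 (1.37 scaled), GATA2, a transcription factor of mast cells, basophils and eosinophils, had 1.73 and 1.81 FPKM at D180 and 3.21 and 2.99 FPKM at Y2 (0.88) and eosinophil peroxidase EPX had 0.400 and 0.325 FPKM at D180 and 1.05 and 1.24 FPKM at Y2 (0.61). In these 3 genes both Y2 pigs were above both D180 pigs as deposited (3.47% of all mRNAs). The eotaxin receptor CCR3, the most abundant of the list, did not share the pattern, with 41.5 and 43.3 FPKM at D180 and 22.3 and 23.2 FPKM at Y2 and a scaled difference of -0.01 (limma, adjusted p = 0.971). The mast cell and basophil receptor subunit MS4A2 had a scaled difference of 0.04. Outside the list, and picked after their values were seen, the adenosine receptor ADORA3 had 0.692 and 0.790 FPKM at D180 and 2.30 and 2.34 FPKM at Y2 and leukotriene C4 synthase LTC4S 0.536 and 0.364 FPKM at D180 and 1.06 and 1.38 FPKM at Y2. The summed scaled level of the list was 35.7 and 33.9 FPKM at D180 and 74.2 and 73.6 at Y2. ALOX15 held most of this difference, and without it, a sum added after the data were seen, the level was 34.9 and 33.0 FPKM at D180 and 46.4 and 46.0 at Y2.

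PP2D1 (chr13:6939990-6958513), which encodes a protein phosphatase-like domain protein, was listed at 0 in both D180 pigs and had 19.6 and 18.1 FPKM at Y2. It was near 0 in the suckling pigs too, the highest being 0.0200 FPKM, so only the Y2 libraries held it. The difference in log2(FPKM + 1) was 4.31 as deposited and 3.68 ± 0.0649 scaled (limma, adjusted p = 9.08e-08), and no fold is given against a level of 0. LGALS13, a galectin, had 0.127 and 0.168 FPKM at D180 and 2.54 and 3.01 FPKM at Y2 and was called only as deposited (1.72, 1.38 scaled), and OAZ3, an inhibitor of polyamine synthesis known from testis, had 0.222 and 0.511 FPKM at D180 and 4.78 and 3.81 FPKM at Y2 and was called both ways (1.96 and 1.71). Among genes picked after their values were seen, the succinate receptor SUCNR1 had 0.230 and 0.0675 FPKM at D180 and 1.81 and 2.35 FPKM at Y2 and the actin-severing protein SCIN 0.240 and 0.185 FPKM at D180 and 1.94 and 2.09 FPKM at Y2.

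Several genes called higher after scaling were abundant. REXO2 (chr9:41977969-41988699), a mitochondrial oligoribonuclease, had 85.9 and 79.4 FPKM at D180 and 220.2 and 212 FPKM at Y2 (2.24 scaled), and its scaled means of 105, 22.3, 226, 28.0 and 136 FPKM over the 5 ages were low at D7 and D180 and high at D28. The red cell water channel AQP1 (chr18:42063482-42076741) had 7.22 and 6.54 FPKM at D180 and 22.1 and 20.9 FPKM at Y2 and was called both as deposited (1.51) and scaled (2.12). The copper chaperone ATOX1 had 28.3 and 23.2 FPKM at D180 and 63.6 and 64.1 FPKM at Y2 (2.08 scaled). In these 3 genes the ages did not overlap as deposited (3.47% of all mRNAs were higher in both Y2 pigs). The redox protein PRXL2A (2.04), the poly(A) polymerase TENT5C (2.02) and the kinase VRK1 (1.98) were also among the 12 with the largest scaled rise. TENT5C had 219.9 and 201 FPKM at D180 and 472 and 459.8 FPKM at Y2. Of mRNAs without a symbol, ENSSSCG00000039381 had 5.54 and 4.17 FPKM at D180 and 41.4 and 43.4 FPKM at Y2 (3.39 scaled) and ENSSSCG00000019239 389 and 384 FPKM at D180 and 2075 and 2029 FPKM at Y2 (3.29).

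Most platelet genes fell at Y2, but none was called once the general fall was taken out. Of 52 listed genes 39 were measured. As deposited 34 fell and 1 rose by adjusted p (all mRNAs 84.6% and 2.49%), 11 were called lower (all mRNAs 1.25%) and the median was -1.32 (all mRNAs -0.65). After scaling 21 fell and 5 rose (all mRNAs 3.95% and 7.47%), none was called and the median was -0.45 (all mRNAs 0.01). With the 10 most abundant mRNAs removed 26 fell and 5 rose (2091 and 766 of all 12344 mRNAs). The median was then -0.66 (all mRNAs -0.13). The von Willebrand receptor subunit GP9 had 8.43 and 7.03 FPKM at D180 and 1.16 and 1.27 FPKM at Y2 (-1.98 as deposited, -1.04 scaled). The fibrinogen receptor subunit ITGB3 had 24.6 and 21.9 FPKM at D180 and 5.42 and 5.32 FPKM at Y2 (-1.93 and -1.02), and F13A1, the clot-stabilising transglutaminase subunit, had 122 and 112 FPKM at D180 and 33.1 and 33.0 FPKM at Y2 (-1.79 and -0.90).

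In these 3 platelet genes both Y2 pigs lay below both D180 pigs, as in 89.0% of all mRNAs as deposited. The collagen receptor GP6, the podoplanin receptor CLEC1B, MYL9, PPBP, THBS1, TPM4, TREML1 and the platelet tubulin TUBB1 were the other ones called as deposited, with scaled differences from -0.84 to -0.72. Other members of the list lay higher. Vinculin VCL had 20.6 and 18.5 FPKM at D180 and 21.0 and 20.9 FPKM at Y2 (0.10 as deposited, 0.90 scaled), PDGFB, picked with VCL after the values were seen, had 1.75 and 2.07 FPKM at D180 and 3.10 and 2.79 FPKM at Y2 (0.79 scaled), and filamin FLNA and talin TLN1 had scaled differences of 0.07 and -0.26, the latter a fall by adjusted p. The summed scaled level of the list was 540.3 and 479.8 FPKM at D180 and 392.3 and 400.1 at Y2.

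Neutrophil and monocyte genes moved in both directions. Of 29 measured neutrophil genes, 6 rose and 2 fell by adjusted p after scaling (all mRNAs 7.47% and 3.95%) with a median of 0.16, whereas as deposited 5 rose, 18 fell (all mRNAs 2.49% and 84.6%) and the median was -0.51. Of these, 2 were called higher after scaling (all mRNAs 0.445%). Arginase ARG1 (chr1:32006035-32028983) had 79.1 and 71.3 FPKM at D180 and 159 and 159.5 FPKM at Y2 (1.93 ± 0.133 scaled), far below its scaled mean of 1448 FPKM at D0, and the matrix protease MMP9 (chr17:48179690-48186782) had 16.8 and 15.7 FPKM at D180 and 28.5 and 27.7 FPKM at Y2 (1.52 ± 0.138), called in 3 of 4 fits without 1 library. ARG1 is also made by red cell precursors. The defining neutrophil genes CSF3R and NCF1 had scaled differences of -0.05 and 0.06, while lactoferrin LTF, picked after the values were seen, had 0.0901 and 0.163 FPKM at D180 and 0.931 and 0.991 FPKM at Y2.

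Of 31 measured monocyte and dendritic cell genes, 4 rose and 4 fell by adjusted p after scaling (all mRNAs 7.47% and 3.95%) with a median of 0.10. The median was -0.05 with the 10 most abundant mRNAs removed (all mRNAs -0.13) and -0.61 as deposited (all mRNAs -0.65). The protease inhibitor cystatin C, CST3 (chr17:30471056-30474486), was called higher with 25.7 and 27.8 FPKM at D180 and 44.0 and 55.1 FPKM at Y2 (1.66 ± 0.230 scaled, limma, adjusted p = 0.00259). A pair of pattern receptors fell instead and were called as deposited, the lipopolysaccharide co-receptor CD14 with 32.6 and 33.0 FPKM at D180 and 10.97 and 10.8 FPKM at Y2 (-1.51, -0.63 scaled) and the beta-glucan receptor CLEC7A with 4.81 and 4.51 FPKM at D180 and 0.822 and 1.07 FPKM at Y2 (-1.54, -0.70 scaled).

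T cell genes had a median near that of all mRNAs after scaling. Of 45 measured T cell genes, 40 fell and none rose by adjusted p as deposited (all mRNAs 84.6% and 2.49%). After scaling 5 rose, 6 fell (all mRNAs 7.47% and 3.95%), none was called and the median was -0.01. With the 10 most abundant mRNAs removed the median was -0.18 (all mRNAs -0.13). The genes named next stood apart from the general fall. CCR7, the lymph node homing receptor of naive T cells, had 28.9 and 26.8 FPKM at D180 and 7.79 and 7.11 FPKM at Y2 (-1.77 as deposited, -0.88 scaled), and LEF1, a transcription factor of naive T cells, had 79.8 and 80.3 FPKM at D180 and 23.5 and 23.2 FPKM at Y2 (-1.73 and -0.85). Both were called lower as deposited. CD8A, the co-receptor of cytotoxic T cells, had 15.2 and 21.7 FPKM at D180 and 16.2 and 18.8 FPKM at Y2 (0.74 scaled, limma, adjusted p = 0.0153), TBX21 (T-bet), a transcription factor of effector T cells and NK cells, had 14.0 and 14.4 FPKM at D180 and 13.6 and 13.1 FPKM at Y2 (0.69 scaled), and CD4 had 21.8 and 18.9 FPKM at D180 and 7.63 and 8.55 FPKM at Y2 (-0.38 scaled, limma, adjusted p = 0.0451). CD8A overlapped between the ages as deposited, while CCR7, LEF1 and CD4 did not. As deposited, 89.0% of all mRNAs were lower in both Y2 pigs than in both D180 pigs. CD8A and TBX21 were picked after their values were seen.

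The median NK and cytotoxic gene lay above the general fall. Of 32 measured, 14 rose and 3 fell by adjusted p after scaling (all mRNAs 7.47% and 3.95%) with a median of 0.37 (0.29 with the 10 most abundant mRNAs removed), against 4 and 14 (all mRNAs 2.49% and 84.6%) and a median of -0.18 as deposited. The chemokine CCL5 had 81.4 and 66.0 FPKM at D180 and 90.6 and 78.3 FPKM at Y2 (1.06 scaled), the granule membrane protein NKG7 42.6 and 39.3 FPKM at D180 and 42.8 and 42.9 FPKM at Y2 (0.91) and the activating receptor KLRK1 6.63 and 7.29 FPKM at D180 and 8.97 and 7.75 FPKM at Y2 (0.89). NKG7 and KLRK1 were picked after their values were seen. Granzyme A went the other way, and GZMA is listed under more than 1 identifier, so how its reads were split is uncertain. The one called lower as deposited had 14.0 and 14.98 FPKM at D180 and 3.58 and 3.56 FPKM at Y2 (-0.87 scaled). Cathepsin W, CTSW, had 26.1 and 24.3 FPKM at D180 and 75.6 and 68.8 FPKM at Y2 and missed the limit on adjusted p after scaling (2.28 ± 0.644 scaled, limma, adjusted p = 0.0605). On scaled means, 26 of the 32 were highest at D28 (2663 of all 12354 mRNAs).

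B cell genes lay close to the median of all mRNAs. Of 36 measured, 1 rose and 2 fell by adjusted p after scaling (all mRNAs 7.47% and 3.95%) with a median of 0.02. The median was -0.14 with the 10 most abundant mRNAs removed (all mRNAs -0.13) and -0.80 as deposited (all mRNAs -0.65). MS4A1 had a scaled difference of 0.21 (limma, adjusted p = 0.152), -0.66 as deposited. Compared with the suckling pigs, 31 of the 36 were above every suckling mean at D180 and 30 at Y2 on scaled means (all mRNAs 26.2% and 25.5%). There were 15 measured T cell receptor signalling genes that the study itself had picked from these samples, and which are therefore no independent evidence. After scaling 1 of them rose and 1 fell (all mRNAs 7.47% and 3.95%) with a median of -0.01. NFATC2, a transcription factor of this pathway, stood at 0.04. Of 20 measured MHC class II and antigen presentation genes 1 rose and 1 fell after scaling (all mRNAs 7.47% and 3.95%). Their median was -0.01, with CD74 at -0.08 and HLA-DRA at -0.01.

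The remaining lists had no call after scaling. Of 46 measured ribosomal protein genes, 14 rose and 2 fell by adjusted p after scaling (for this and the lists that follow, 7.47% and 3.95% of all mRNAs did). Their scaled median was 0.29. It was 0.09 with the 10 most abundant mRNAs removed (all mRNAs -0.13) and -0.59 as deposited (all mRNAs -0.65). RPS2, picked after its value was seen, had 96.9 and 90.4 FPKM at D180 and 109 and 108 FPKM at Y2 (1.08 scaled). Of 46 cell cycle and histone genes 8 rose and none fell, with a median of 0.08, among them the spindle protein TPX2, picked after its value was seen, at 0.95 and the motor protein KIF11 at 0.75 scaled. Of 69 respiratory chain genes 3 rose and none fell, with a median of 0.05. Of 39 immediate early and stress genes 5 rose and 1 fell, with a median of 0.06, and FOS, picked after its value was seen, had 0.905 and 0.633 FPKM at D180 and 3.21 and 3.59 FPKM at Y2 (1.31 scaled). Of 27 complement and Toll-like receptor genes 3 rose and 4 fell, with a median of 0.01, and the complement component C2 was called lower as deposited only, with 13.6 and 13.4 FPKM at D180 and 3.53 and 3.26 FPKM at Y2 (-0.83 scaled). Of 11 collagen, fibroblast and endothelium genes 2 rose and 2 fell, with a median of -0.02, and of the 13 sarcomere and muscle genes none rose and 2 fell, with a median of -0.09. As deposited the medians of the cell cycle, respiratory chain, immediate early, complement, collagen, sarcomere, T cell receptor and MHC class II lists lay between -0.88 and -0.40 (all mRNAs -0.65). With the 10 most abundant mRNAs removed they lay from -0.21 to just under 0 (all mRNAs -0.13). Small medians above 0 thus turned with the scaling, as did the median of all mRNAs.

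**Figure D3:**
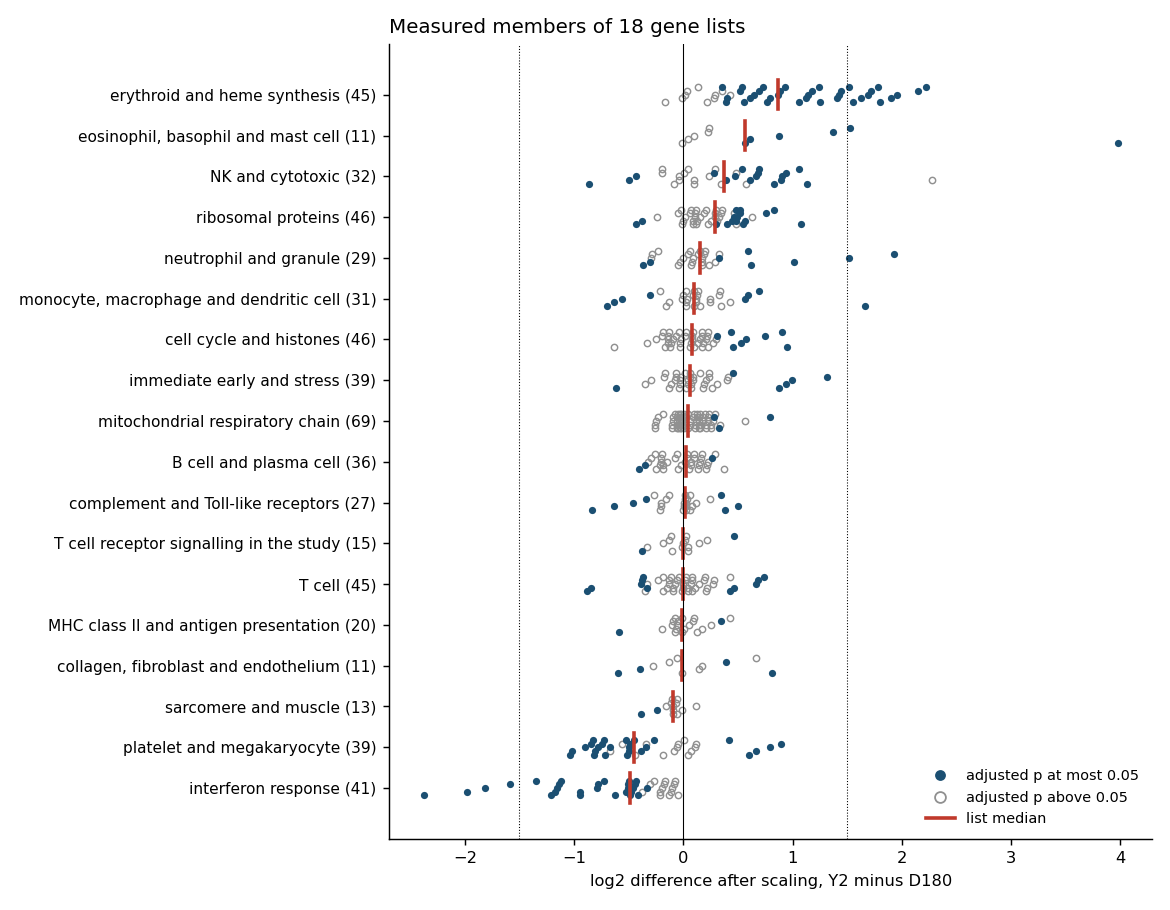
Scaled difference Y2 minus D180 in log2(FPKM + 1) (horizontal axis) of each measured member of 18 gene lists, filled where the adjusted p was at most 0.05, with red bars at the list medians and dotted lines at -1.5 and 1.5. The red cell list lies to the right with a median of 0.87, the interferon and platelet lists to the left with -0.49 and -0.45, and most other lists are centred near 0.

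Loss and gain were also read from the limits that define an expressed transcript in these files, 0.5 FPKM for mRNAs and 0.1 FPKM for lncRNAs. As deposited, 652 mRNAs were above 0.5 FPKM in both D180 pigs and at or under it in both Y2 pigs, and 50 the reverse. The 652 lay near the limit, with a median of 0.796 FPKM at D180, and 503 of them were at or under it in all suckling libraries too. After scaling 194 mRNAs were lost and 176 gained by the same limit, of which 67 and 87 passed the adjusted p in that direction and 3 and 3 were called. Of lncRNAs, 332 were lost and 124 gained as deposited, and 288 and 220 after scaling, of which 12 and 23 passed the adjusted p and 3 and 1 were called.

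The 65 mRNAs called after scaling had an uneven earlier course, described here without a test since D180 and Y2 values chose them. Of the 55 called higher, 42 (76.4%) had a D180 mean below all 3 suckling means, which held for 25.8% of all mRNAs, and 22 went down at each step from D0 to D180. At Y2, 30 of the 55 were still below all suckling means, 12 were within their range and 13 above it (all mRNAs 25.6%, 48.9% and 25.5%). The median of their scaled means was 108, 71.3 and 48.4 FPKM over the suckling ages in order, then 6.93 for D180 and 28.5 for Y2 pigs. The group thus held many mRNAs with an earlier low point at D180 and a smaller number, ALOX15 and PP2D1 among them, with their highest level at Y2. Of the 10 called lower, 5 were highest at D180, 2 at D0, 2 at D7 and 1 at D28, and at Y2 6 were below all suckling means and 4 within their range. Of the 154 called lower as deposited, 144 (93.5%) were highest at D180, close to the 90.4% of all mRNAs.

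**Figure D4:**
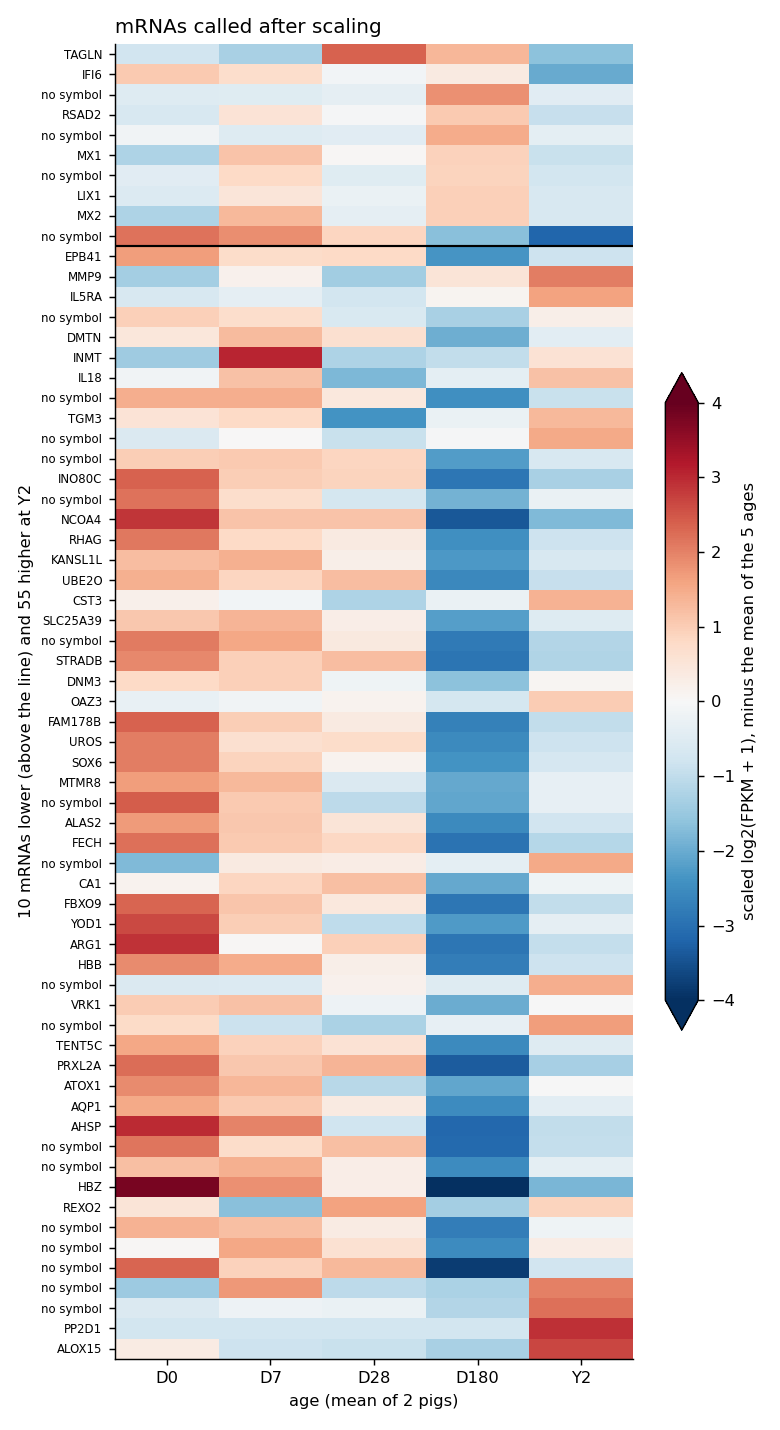
Scaled age means in log2(FPKM + 1), centred on each gene's mean over the 5 ages (colour), of the 65 mRNAs called after scaling (vertical axis), for the 5 ages in order (horizontal axis). Most of the 55 called higher are lowest at D180 and highest in a suckling age, while 13 are highest at Y2.

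Fewer lncRNAs than mRNAs were called on log2(FPKM + 1), where scarce transcripts cannot show large differences. With a pseudocount of 0.1 FPKM, 662 of 5946 lncRNAs and 708 of 12354 mRNAs were called lower as deposited, and 123 and 56 higher. As shares of their tables, more lncRNAs than mRNAs were then called, in both directions. After scaling, that pseudocount gave 23 of 5946 lncRNAs and 62 of 12354 mRNAs lower, and 39 and 144 higher, a smaller share of lncRNAs in both directions. The counts below are with a pseudocount of 1 FPKM. As deposited 36 lncRNAs (0.605% of the 5946 tested) were called lower at Y2 and 6 (0.101%) higher, with 2573 (43.3%) and 185 (3.11%) by adjusted p alone and a median difference of -0.30. After scaling 3 (0.0505%) were called lower and 6 (0.101%) higher, with 21 (0.353%) and 48 (0.807%) by adjusted p alone and a median of -0.02. The 44 called in either scaling had a median level of 2.96 FPKM over the 4 libraries, against 0.446 for all lncRNAs. By position on Sscrofa11.1, 21 overlapped a protein-coding RefSeq gene and 3 lay on unplaced scaffolds. Of the 44, 8 spanned fewer than 200 nt.

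The lncRNAs called lower after scaling came from 2 loci. TCONS_00026570 (chr11:66210464-66219107, plus strand) and TCONS_00026569 (chr11:66218787-66219107) overlap, so they may share reads and are counted as one locus. The first had 15.4 and 11.8 FPKM at D180 and 0.0582 and 0 FPKM at Y2 and the second 14.1 and 11.9 FPKM at D180 and 0 and 0 FPKM at Y2. They were absent or nearly so at Y2, although as deposited the 6 suckling libraries held 34.5 to 53.9 FPKM of the first and 33.5 to 66.3 FPKM of the second. The scaled means from D0 to Y2 were 100, 102, 38.5, 4.62 and 0.0182 FPKM for the first. For the second they were 92.7, 125, 36.3, 4.42 and 0 FPKM, so both had already fallen by D180. Their scaled differences were -2.45 ± 0.219 and -2.43 ± 0.229 (limma, adjusted p = 0.00605 and 0.00730). TCONS_00113530 (chr3:128555141-128555611) had 6.09 and 6.99 FPKM at D180 and 0 and 0 FPKM at Y2, a scaled difference of -1.68 (limma, adjusted p = 7.42e-04). It was listed at 0 at D7 and was at or near 0 at D28, but had 6.87 and 8.41 FPKM at D0. Its scaled means were 17.1 FPKM at D0 and 2.21 at D180. It was thus well above 0 at D0 and D180 only, and after scaling lower at D180 than at D0.

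Of the 6 called higher after scaling, TCONS_00045377 (chr13:198353138-198359736) was listed at 0 in both D180 pigs and had 5.20 and 4.12 FPKM at Y2. It was also listed at 0 at D28, after 2.36 and 2.90 FPKM at D0. TCONS_00051230 (chr13:138226334-138236860, minus strand), which overlaps LOC396867, had 0.323 and 0.721 FPKM at D180 and 5.27 and 5.11 FPKM at Y2 (1.86 ± 0.0742 scaled). TCONS_00045135 (chr13:192695086-192698275, plus strand) overlaps the end of BACH1, a transcriptional repressor that senses heme, and had 1.65 and 2.18 FPKM at D180 and 7.42 and 7.85 FPKM at Y2 (1.82 scaled). BACH1 itself had 22.0 and 20.0 FPKM at D180 and 13.8 and 14.0 FPKM at Y2 and a scaled difference of 0.26 (limma, adjusted p = 0.118), so the lncRNA and the gene it overlaps did not share a direction as deposited.

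TCONS_00146821 (chr6:85534557-85536196, plus strand), which overlaps LOC100621455, had 13.1 and 15.02 FPKM at D180 and 29.4 and 29.0 FPKM at Y2 (1.75 scaled) after 70.6 and 79.6 FPKM at D0. TCONS_00119400 (chr3:118016880-118018031, minus strand) had 0.793 and 1.38 FPKM at D180 and 4.28 and 5.86 FPKM at Y2 (1.61 scaled) after 31.2 and 32.1 FPKM at D7, and TCONS_00190750, on an unplaced scaffold, had 2.09 and 2.16 FPKM at D180 and 6.33 and 9.43 FPKM at Y2 (1.77). In all 6 both Y2 pigs were above both D180 pigs as deposited (6.84% of all lncRNAs). The lncRNA calls depended on the libraries in the fit, since with the 4 libraries of D180 and Y2 alone 1 was called higher and 1 lower after scaling.

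Some lncRNAs were called only as deposited. TCONS_00100228 (chr2:6753887-6757177) had 102 and 114 FPKM at D180 and 0 and 0 FPKM at Y2, but it was also at 0 in 1 of the 2 pigs at D7 and at D28, and its call was lost whichever of the 4 libraries was left out (-6.77 ± 1.60, limma, adjusted p = 0.0107, and 0.279 scaled). TCONS_00105443 (chr2:103818773-103819174, minus strand), within the span of RIOK2, the neighbour of LIX1, had 4.89 and 4.84 FPKM at D180 and 0.467 and 0.422 FPKM at Y2 (-2.02 as deposited, -1.05 scaled). TCONS_00179373 (chr9:2980847-2981019) was listed at 0 in both D180 pigs and had 2.99 and 2.72 FPKM at Y2 (1.95 as deposited, 1.48 scaled). TCONS_00067704, which overlaps the retinol dehydrogenase gene DHRS9, had 8.01 and 6.64 FPKM at D180 and 0.315 and 0.548 FPKM at Y2 (-2.54 as deposited, -1.45 scaled), while DHRS9 had 42.5 and 44.1 FPKM at D180 and 24.0 and 25.6 FPKM at Y2 (0.08 scaled).

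**Figure D5:**
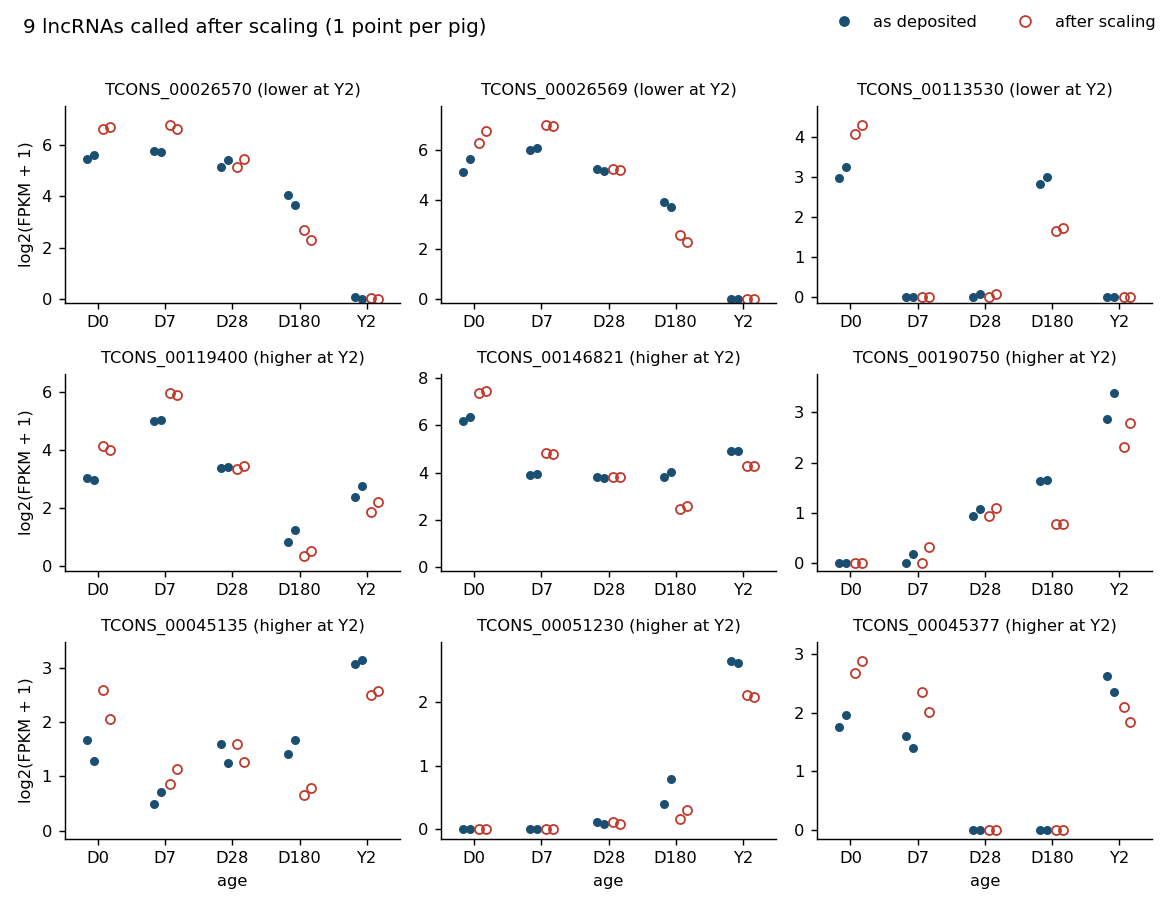
Level of the 9 lncRNAs called after scaling in log2(FPKM + 1) (vertical axes) in each of the 10 pigs by age (horizontal axes), with filled points as deposited and open points scaled. The overlapping pair on chromosome 11 drops to 0 or near it at Y2, and TCONS_00045377 is at 0 at D28 and D180 and above 4 FPKM as deposited at Y2.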

How the data were processed

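RNA of peripheral blood from 10 female Qingyu pigs, 2 at each of 5 ages, was sequenced after removal of ribosomal RNA. Per the study's methods and the submitters' processing notes, the authors aligned reads to Sscrofa11.1 with HISAT2 2.0.4, quantified mRNAs with StringTie 1.3.3, assembled transcripts with StringTie, and merged and compared them for the lncRNA catalogue with tools of Cufflinks 2.2.1, and CASAVA 1.8.2 is also named. The deposited values are FPKM per mRNA (kept above 0.5 FPKM in at least 1 library) and per lncRNA (above 0.1 FPKM). They are not counts and low values showed no whole-read steps, so the reads behind each value and their counting error cannot be read from the files (library read totals, which the study states, are not used here), and no interval is given.

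From the files, scaled FPKM were computed by dividing each column of both tables by its median-of-ratios factor from the mRNA table. log2(FPKM + 1) of all 10 libraries was fitted by age with limma 3.58.1 in R 4.3.3 (mean-variance trend, shared spread over the 5 ages), with Benjamini-Hochberg adjustment over each whole table. For a call, the adjusted p could not exceed 0.05 and the log2 difference had to reach 1.5 either way. The script was tested on simulated data with 200 changed transcripts. Python 3.11.15, pandas 2.3.3, numpy 2.4.6, scipy 1.17.1 and matplotlib 3.10.9 were used for the rest.

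The gene lists and the comparison were chosen with earlier results of these data known. Named were the 12 mRNAs with a symbol called highest and the 12 called lowest after scaling (at least 1 FPKM in both pigs of the higher age), 5 and 5 as deposited, called list members and up to 4 abundant uncalled ones per list, the study's genes, the 10 most abundant mRNAs, the 8 lncRNAs called highest and 8 lowest (at least 0.5 FPKM), and at most 2 identifiers without a symbol each way. Genes picked later are marked as such. Some genes that the rule names are not reported here. The 10 most abundant mRNAs are given as counts, since 8 have no symbol. Symbols came from RefSeq (Sscrofa11.1) or from identifier and symbol pairs in the study's supplement, and coordinates from RefSeq or, for lncRNAs, from the files. No nucleotide or protein sequence was used here.

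Pig numbers were taken from the labels. They do not pair pigs across ages, since each pig was sampled once. Alternatives were another pseudocount, a fold limit on mean FPKM, a filter on low values, no trend, only 4 libraries, another scaling, a term for pig number, and each library left out in turn.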

Additional observations from a re-analysis of the deposited data

How the results depend on the processing

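Every value here is a count of transcripts unless stated. With a pseudocount of 0.1 FPKM instead of 1, mRNAs called as deposited came to 56 higher and 708 lower and scaled to 144 and 62, and lncRNAs to 123 and 662 as deposited and 39 and 23 scaled. With the limit set on the ratio of mean FPKM, they came to 73 and 967, 190 and 97, 148 and 1073, and 47 and 19 in the same order. These settings let scarce transcripts pass, so the counts, unlike most directions, depend on how low values are treated. With the 10 most abundant mRNAs removed, mRNA calls were 47 higher and 25 lower and lncRNA calls 11 and 9, and 250 mRNAs were lost and 130 gained by the limit as deposited. With only the 4 libraries in the fit, 23 lncRNAs were called lower as deposited, and 1 higher and 1 lower scaled. With a limit of 1 FPKM, 740 lncRNAs were lost and 32 gained as deposited, and 92 and 35 scaled. Leaving out each library in turn gave 13 to 16 higher and 171 to 180 lower mRNAs as deposited, 49 to 63 and 10 to 16 scaled (16 without the first Y2 pig), 7 to 16 and 36 to 51 lncRNAs as deposited, and 7 to 10 and 3 to 6 scaled. It gave 812 to 876 mRNAs lost and 75 to 90 gained as deposited, 276 to 323 and 253 to 269 scaled, 486 to 610 lncRNAs lost and 240 to 277 gained as deposited, and 479 to 535 and 348 to 474 scaled, where each count asks less of the age with 1 pig. The ratio of factors was 0.556 and 0.550 with other mRNAs or libraries behind it. A term for pig number (replicate block) gave 13 and 155 mRNAs as deposited, 54 and 10 scaled, 7 and 37 lncRNAs as deposited and 6 and 3 scaled. Same-numbered pigs share only a number, their deviations correlating at 0.00298 and 0.0149 for mRNAs and at -0.0231 and -0.0257 for lncRNAs, as deposited and scaled.

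For single named transcripts, 4205 values kept direction and side of the limit, 240 lost the call, 68 gained it and 21 turned. Of these, 19 were lower at Y2 as deposited and higher with the 10 most abundant mRNAs removed (log2 differences): BNIP3L 0.59, PRDX2 0.42, MS4A1 0.0132, FCER1G 0.0848, LGALS3 0.15, ITGAM 0.0527, CTSS 0.24, ALOX5AP 0.13, FCER1A 0.42, RPL11 0.19, COX1 0.0879, ND4L 0.0201, PECAM1 0.00256, MYD88 0.21, TEC 0.0563, BLNK 0.0564, CD8A 0.58, TBX21 0.54 and RPLP0 0.63. The other 2 concern an abundant mRNA without a symbol that is listed at 0 in the second Y2 pig and ranged from -15.92 without the first Y2 pig to 0.69 without the second as deposited, and from -14.36 to 1.57 scaled. The causes were not tested.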
